A study of Mus musculus with 60 samples.

Results

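BIO 300 and vehicle were compared in the blood of irradiated mice. The 6 mice given BIO 300 and then total-body irradiation (TBI), animals 55 to 60, were set against the 6 mice given vehicle and then TBI, animals 49 to 54. These are all the irradiated animals among the 60 mice of the series, which fall into 10 groups. BIO 300 Oral Powder contains synthetic genistein, in an amorphous solid form, a soy isoflavone that binds estrogen receptor β in preference to estrogen receptor α. It was given by gavage at 200 mg/kg, 2 times per day for 6 days, and the controls received the vehicle alone on the same schedule. All 12 mice were male CD2F1 animals, bought at 5 to 6 weeks of age and housed 3 per cage. They received 9.2 Gy of 60Co TBI 24 h after the last dose and were bled 24 h later, which is 48 h after the last dose. The mice were irradiated with 6 in each of 2 boxes. Which mice shared a box or a cage is not stated in the sources used here, so a box that held 1 treatment group cannot be told apart from the treatment. Each library is whole blood of 1 mouse drawn from the inferior vena cava. Unique gene counts summed to between 21760205 and 28091646 per mouse with vehicle and between 22188321 and 38551640 with BIO 300. Levels are given as CPM, counts scaled to the size of each library, on the TMM scale of these 12 mice, and a log2 fold change is BIO 300 minus vehicle, with its standard error (SE). For each group of 6 the lowest, the median and the highest mouse are given.

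Blood leukocytes differ in how fast they disappear after a lethal radiation dose. B cells and naive T cells die by p53-dependent apoptosis within hours, whereas mature neutrophils, platelets and red cells do not divide and are lost when the irradiated marrow fails to replace them. A bulk RNA level from whole blood sets the transcripts of all these cells against each other, so a higher level of one cell type's genes lowers the share of the rest. In such samples fewer cells of a type and less RNA per cell cannot be told apart.

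No gene differed between the irradiated groups at an adjusted p under 0.05 with an absolute log2 fold change over 1, the definition of a differentially expressed gene (DEG). Of 24916 genes tested with edgeR, 0% were called higher and 0% lower, and the smallest Benjamini-Hochberg adjusted p was 1.00. DESeq2 and limma voom also called 0 DEGs, with smallest adjusted p-values of 0.324 and 0.0852. At an unadjusted p under 0.05, edgeR gave 688 genes, DESeq2 307 and voom 2355. With edgeR these were 474 higher genes (1.90%) and 214 lower genes (0.859%). The median SE of a log2 fold change was 0.47, and 1331 genes (5.34%) lay above a log2 fold change of 1 and 1928 genes (7.74%) below -1. The 2 groups of mice did not overlap for 8 genes that were higher with BIO 300 (0.0321%) and 11 that were lower (0.0441%). The median log2 fold change over all genes was -0.07, and 42.3% of the genes had a value above 0. Scaling to total counts moved this median to -0.20. Every fold change below therefore describes these mice and did not pass the test, and adjusted p = 1.00 with edgeR applies to each gene named in the comparison of all 12 mice.

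Transcripts of liver, fat and muscle were far more abundant in some of the blood libraries than in the rest. The liver gene Alb, which encodes serum albumin, reached 3610 CPM in animal 49, 15900 CPM in animal 51 and 5741 CPM in animal 57. It was at 38.9 CPM in animal 59 and at 1.57 CPM or less in the remaining 8 mice, 3 of which had 0 counts. A count of 0 allows up to 3 counts, which is between 0.0586 and 0.201 CPM in these libraries. The 23 hepatocyte genes summed to 15640, 55700 and 19880 CPM in animals 49, 51 and 57, to 255 CPM in animal 59 and to between 36.5 and 73.2 CPM elsewhere. The 13 adipocyte genes summed to 1067, 1362, 1393 and 525 CPM in animals 49, 51, 57 and 59 and to 81.7 CPM or less in the others. In animal 57 most of this sum was Lpl, at 649 CPM, and Car3, at 608 CPM, genes that muscle also expresses. Adipoq, which encodes the fat cell hormone adiponectin, was at 0.0976 CPM there and at 16.5, 14.9 and 18.3 CPM in animals 49, 51 and 59, and 2 of the 13 genes had 0 counts in animal 57. Hepatocyte genes were thus high in animals 49, 51 and 57 and raised to a lesser extent in animal 59, which makes 2 mice of each group, while Adipoq was high in 2 vehicle-treated mice and 1 BIO 300-treated mouse.

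Animal 57, a BIO 300-treated mouse, also held transcripts of striated muscle. Mb, which encodes myoglobin, was at 1451 CPM there and at 1.45 CPM or less in the other 11 mice. Myl2, the regulatory light chain of ventricular myosin, was at 892 CPM against 1.48 CPM or less, and Pln, the phospholamban of the cardiac sarcoplasmic reticulum, at 980 CPM against 2.76 CPM or less. A list of 14 heart muscle genes, chosen after these values had been seen, summed to 6417 CPM in animal 57 and to between 5.69 and 25.8 CPM in the others. The 10 smooth muscle genes of the vessel wall summed to 1340 CPM in animal 57, to between 44.8 and 178 CPM with vehicle and to between 106 and 266 CPM in the other 5 mice with BIO 300. Endothelial genes, 12 in number, summed to 199 CPM in animal 57 and 195 CPM in animal 51, with 49.5 to 112 CPM in the remaining mice.

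**Figure D1:**
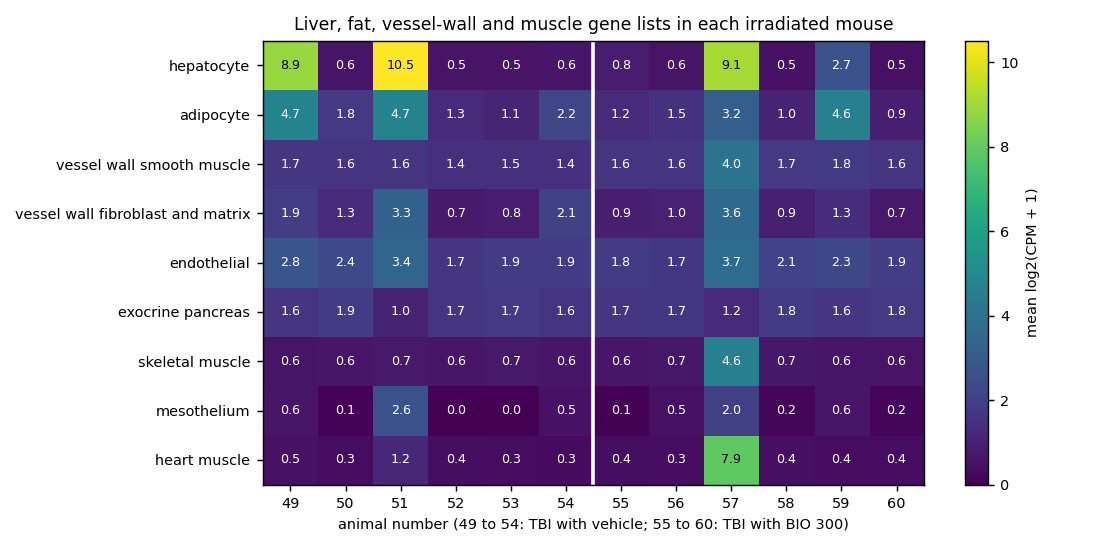
Mean log2(CPM + 1) of each list of genes from tissues other than blood, with the 12 irradiated mice as columns (animals 49 to 54 vehicle, 55 to 60 BIO 300, divided by a white line) and lists as rows. Colour and printed value give the level. Animals 49, 51 and 57 stand out for the hepatocyte list, animals 49, 51 and 59 and, less so, animal 57 for the adipocyte list, and animal 57 for skeletal and heart muscle.

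Single libraries among these held most of the level of many genes higher with BIO 300 and of fewer that were lower. Of the 474 genes higher with BIO 300 at an unadjusted p under 0.05, 296 had over 50% of their summed CPM in animal 57, and of the 214 lower genes, 47 had over 50% in animal 51. The share of all genes tested with over 50% in either mouse is not given here, so these counts have no background. In the hepatocyte list all 23 members had a log2 fold change below 0, with a median of -1.73, and 19 of them lay below -1. Without animals 49, 51 and 57 the median of this list was 4.17, and animal 59 then had the highest summed level. The adipocyte median of -0.61 became 2.14 in the same way. For the 14 fibroblast and matrix genes the median went from 0.18 to -1.22. For the vessel smooth muscle list it was 0.87 in all 12 mice, with 3 of 10 members higher at an unadjusted p under 0.05, all of them genes that peak in animal 57. Without animal 57 this median was 0.12, and 2 members were higher at that threshold, where 1.37% of all genes tested were. In the 9 mice the median was 0.51, and 1 member was higher. The blood-cell genes are described apart from these lists, with their values without animals 49, 51 and 57 (9 mice) or without animals 49, 51, 57 and 59 (8 mice) where these differ. In the 9 mice 458 genes were higher at an unadjusted p under 0.05 (2.09%) and 247 lower (1.13%), and in the 8 mice 292 were higher (1.37%) and 226 lower (1.06%). Neither fit gave a DEG, and their smallest adjusted p-values were 0.977 and 1.00.

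B-cell genes were lower with BIO 300 by their fold changes. Of 18 genes, 17 had a log2 fold change below 0, and the median was -0.50, beside -0.07 over all genes. It was -0.45 in the 9 mice. At an unadjusted p under 0.05, 2 were lower in all 12 mice and 4 in the 9 mice, where 0.859% and 1.13% of all genes tested were. Pax5 (chromosome 4, 44524757 to 44710487, GRCm38, minus strand), the transcription factor that holds cells in the B lineage, was at 6.25, 12.3 and 20.2 CPM (lowest, median, highest) with vehicle and at 5.67, 6.46 and 9.37 CPM with BIO 300. This is a log2 fold change of -0.80 (SE 0.27). Animal 53 was the one vehicle-treated mouse below the BIO 300 median, and all 6 treated mice lay below the vehicle median.

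Ighd, the heavy chain constant region of the IgD carried by mature naive B cells, was at 2.65, 4.28 and 8.96 CPM with vehicle and 2.03, 2.79 and 5.20 CPM with BIO 300, a log2 fold change of -0.73 (SE 0.34). Ms4a1, which encodes CD20, had group medians of 22.4 and 13.0 CPM, with a log2 fold change of -0.54 (SE 0.38). The inhibitory receptor gene Cd22 had medians of 23.2 and 16.5 CPM (-0.38, SE 0.22). Ighm, the heavy chain of IgM, ran from 43.4 to 149 CPM with vehicle and from 40.6 to 117 CPM with BIO 300 (-0.43, SE 0.32). For each of these genes the 2 groups overlapped, and the highest treated mouse for Ighm was animal 57. The sign of the list median held in all 22 alternatives, between -0.67 (voom) and -0.31 (without animal 51). Without animal 57, 9 of the 18 were lower at an unadjusted p under 0.05, where 10.1% of all genes tested were. MHC class II and dendritic cell genes, which B cells share in part, had a median of -0.23 over 14 genes, of which 0 were lower at an unadjusted p under 0.05. Without animal 57 the median was -0.62 and 5 were lower at that threshold, and without animals 50, 51, 59 and 60 in turn it was -0.36, -0.05, -0.14 and -0.11. In this list the invariant chain gene Cd74 was at 86.4 CPM (median) with vehicle and 53.7 CPM with BIO 300, while animal 57 reached 155 CPM. The log2 fold change was -0.38 (SE 0.39), and -0.81 without animal 57.

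Genes of T cells and of natural killer (NK) and other cytotoxic cells lay on the other side of 0. All 18 T-cell genes had a log2 fold change above 0, with a median of 0.26, and none had an unadjusted p under 0.05. Cd3e, a signalling chain of the T-cell receptor complex, was at 8.29, 25.6 and 32.1 CPM with vehicle and at 9.04, 29.2 and 48.7 CPM with BIO 300 (0.40, SE 0.41). Tcf7, the transcription factor TCF1 of naive T cells, had medians of 28.0 and 31.6 CPM (0.18, SE 0.43), and in the 9 mice its log2 fold change was 0.02 (SE 0.26). The lowest mouse of each group was animal 51 or animal 57 for both genes. The median of the T-cell list was 0.16 in the 9 mice, 0.10 without animal 51, 0.15 without animal 50, 0.45 without animal 57 and 0.46 without animal 54.

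All 14 NK and cytotoxic genes were above 0, with a median log2 fold change of 0.72 that lay between 0.49 and 0.94 in the 22 alternatives. With 1 mouse left out the median lay between 0.51 and 0.94. None had an unadjusted p under 0.05 in the 12 mice, and none did with scaling to total counts, where the median was 0.49. In the 9 mice 10 did, where 2.09% of all genes tested were higher. In the 8 mice 8 did, where 1.37% were higher. All of these were higher with BIO 300. Without animal 57 alone, the treated mouse with the lowest list level, 12 did, where 1.37% of all genes tested were higher. Their adjusted p-values in the 9 mice were 0.98 with edgeR. Ccl5, a chemokine that activated cytotoxic lymphocytes and platelets store, was at 2.48, 12.3 and 20.6 CPM with vehicle and 5.76, 24.3 and 47.3 CPM with BIO 300, a log2 fold change of 1.02 (SE 0.51). Gzma, which encodes the granule protease granzyme A, was at 5.44, 26.7 and 45.9 CPM with vehicle and 13.0, 48.6 and 61.7 CPM with BIO 300 (0.79, SE 0.45). As with the T-cell genes, animals 51 and 57 were the lowest of their groups for both.

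Il2rb, the β chain of the receptors for interleukin 2 and interleukin 15, had medians of 31.0 and 48.9 CPM and reached 153 CPM in animal 60. Its log2 fold change of 0.80 (SE 0.45) became 0.26 without that mouse. Among the other members, Gzmb had a log2 fold change of 1.00 (SE 0.46), and Prf1, the pore-forming protein of the same granules, one of 0.69 (SE 0.44). Tbx21, the transcription factor T-bet, had 0.84 (SE 0.44) and the NK receptor gene Ncr1 0.75 (SE 0.45). The exception in size was S1pr5, a receptor that guides NK cells out of tissue, at 0.02 (SE 0.25). Over the whole list the summed level was 57.3, 129 and 213 CPM with vehicle and 69.6, 215 and 427 CPM with BIO 300, so 3 treated mice, animals 56, 59 and 60, lay above every vehicle-treated mouse.

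**Figure D2:**
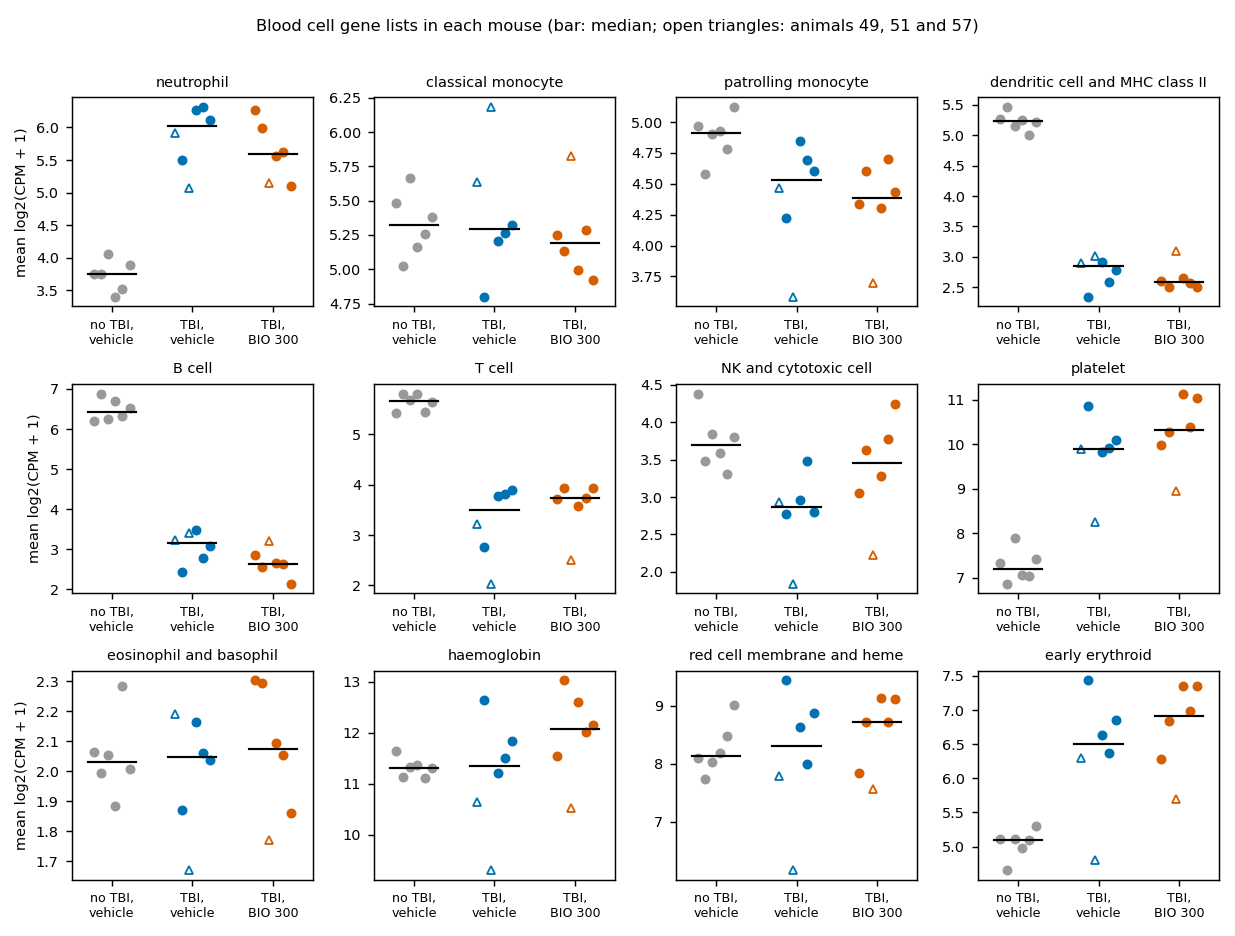
Mean log2(CPM + 1) of each blood-cell gene list per mouse, in unirradiated vehicle-treated mice of Day 1 (grey), irradiated mice with vehicle (blue) and irradiated mice with BIO 300 (orange), 6 mice each, on the scale of 24 mice. Bars mark medians and open triangles animals 49, 51 and 57. The B-cell medians are 6.43, 3.16 and 2.65, and in the NK and cytotoxic panel they are 3.70, 2.86 and 3.46.

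Neutrophil genes tended to lie below 0. Of 18 genes, 16 had a log2 fold change below 0 with a median of -0.33, and -0.39 in the 9 mice. This median was -0.16 without animal 57, -0.21 without animal 52 or 53 and -0.54 without animal 55. Lcn2 and Hp were the 2 members with an unadjusted p under 0.05, both lower with BIO 300, where 0.859% of all genes tested were. In the 9 mice 3 members were lower at that threshold and in the 8 mice 2, where 1.13% and 1.06% of all genes tested were. Lcn2, the iron-scavenging lipocalin of neutrophil granules, was at 47.9, 87.2 and 180 CPM with vehicle and 31.3, 39.5 and 88.5 CPM with BIO 300 (-0.88, SE 0.36). Hp, haptoglobin, which liver and neutrophils both make, was highest in animal 51 at 2521 CPM and in animal 49 at 950 CPM, and its log2 fold change of -1.47 (SE 0.63) was -0.26 (SE 0.30) in the 9 mice. For Lcn2 the corresponding value was -0.43 (SE 0.32). The abundant receptor genes Csf3r, for granulocyte colony-stimulating factor, and Cxcr2, for the neutrophil-attracting chemokines, had medians of 2230 and 1584 CPM and of 729 and 562 CPM. Their log2 fold changes were -0.32 (SE 0.42) and -0.26 (SE 0.41).

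The 2 subunits of calprotectin, which neutrophils release and which act on toll-like receptor 4, are among the genes named by the study. S100a8 was at 88.5, 453 and 629 CPM with vehicle and at 166, 286 and 435 CPM with BIO 300, a log2 fold change of -0.48 (SE 0.42). S100a9 was at 175, 789 and 1094 CPM with vehicle and 333, 584 and 1028 CPM with BIO 300 (-0.21, SE 0.43). Animals 51 and 57 were again the lowest of their groups, and in the 9 mice the values were -0.72 (SE 0.27) and -0.42 (SE 0.31). S100b, a calcium-binding protein of glia and fat cells, was at 1.44 and 1.45 CPM in animals 49 and 51 and at 0.334 CPM or less in the other 10 mice. Its log2 fold change of -2.03 (SE 0.94) was 0.22 (SE 0.83) in the 9 mice. Both high mice are among those with liver and fat transcripts, whose part in the value was not tested.

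Among the genes at or above 10 CPM with the smallest unadjusted p that were lower with BIO 300 were Steap4, a metalloreductase induced by inflammation, Ifitm6, a membrane protein of the interferon-induced transmembrane family, and Megf9, a membrane protein with EGF-like domains. Steap4 was at 96.5, 161 and 196 CPM with vehicle and 43.9, 87.4 and 143 CPM with BIO 300, with a log2 fold change of -0.76 (SE 0.29), and -0.77 (SE 0.25) in the 9 mice. Ifitm6 was at 13.1, 23.9 and 28.9 CPM against 8.18, 14.1 and 21.6 CPM (-0.68, SE 0.25). Megf9 had medians of 67.8 and 44.8 CPM (-0.49, SE 0.19). Of the same set, Lrg1 and Orm2, which hepatocytes make as acute-phase proteins, peaked in animal 51 at 598 and 100 CPM, and their log2 fold changes of -1.02 and -2.13 were -0.44 and -0.03 in the 9 mice. Ipmk, an inositol polyphosphate kinase found in most cells, was at 37.6, 39.9 and 48.9 CPM with vehicle and 29.1, 32.4 and 36.7 CPM with BIO 300 (-0.33, SE 0.13). Its groups did not overlap, as for 0.0441% of all genes tested in that direction.

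The toll-like receptors named by the study had log2 fold changes between -1.01 and -0.15. In the list of 18 receptors and adaptors, 17 were below 0, the median was -0.26, and no member had an unadjusted p under 0.05. Tlr2, which senses bacterial lipoproteins with Tlr1 or Tlr6 as partner, was at 12.7, 23.8 and 27.9 CPM with vehicle and 11.5, 18.7 and 30.6 CPM with BIO 300 (-0.16, SE 0.30). Tlr4, the endotoxin receptor, had medians of 58.3 and 41.2 CPM (-0.34, SE 0.27). For the flagellin receptor gene Tlr5 the medians were 8.62 and 4.90 CPM (-0.56, SE 0.32). Tlr6 and Tlr8 stood at -0.21 (SE 0.38) and -0.15 (SE 0.24), and Clec4e, a lectin receptor of myeloid cells that is induced by danger signals, at -0.16 (SE 0.29). Tlr3, a sensor of double-stranded RNA, was at 9.65 CPM in animal 51 and 5.19 CPM in animal 57, and its log2 fold change of -1.01 (SE 1.06) became 0.46 without animal 51. Tgfa, a ligand of the epidermal growth factor receptor, exceeded 0.217 CPM in animals 49, 51 and 57 and in no other mouse.

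Classical monocyte genes had a median of -0.27 over 12 genes and patrolling monocyte genes one of -0.09 over 10. The classical monocyte median was -0.02 in the 9 mice and 0.07 without animal 51. Lyz2, the lysozyme of myeloid cells, had medians of 1214 and 1311 CPM (0.18, SE 0.34), and Mpeg1, a perforin-like protein of phagocytes, 350 and 264 CPM (-0.32, SE 0.26). The cytokine, chemokine and inflammasome list (25 genes, median -0.19), the C-type lectin receptors (12 genes, -0.28) and the haematopoietic cytokine receptors (20 genes, -0.21) lay near the neutrophil median, with 0 members at an unadjusted p under 0.05.

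Platelet genes were above 0 in all 16 members, with a median log2 fold change of 0.49, and 0 had an unadjusted p under 0.05. The median lay between 0.30 without animal 51 or 58 and 0.76 without animal 50 when 1 mouse was left out. Ppbp, the platelet basic protein, was at 1723, 7152 and 13570 CPM with vehicle and 3069, 8657 and 13320 CPM with BIO 300 (0.25, SE 0.46). Nrgn, a calmodulin-binding protein abundant in platelets, had medians of 4128 and 5365 CPM (0.46, SE 0.45). Thbs1, the thrombospondin of platelet α-granules, was at 912, 1852 and 4393 CPM with vehicle and at 1157, 2523 and 6949 CPM with BIO 300 (0.58, SE 0.48). The summed platelet level was lowest in animals 51 and 57, at 7780 and 12400 CPM. It was highest in animal 50 of the vehicle group and animals 58 and 60 of the BIO 300 group, between 49550 and 56180 CPM.

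Red cell genes varied more among the mice than between the groups. The 4 haemoglobin genes summed to 11790, 83250 and 204700 CPM with vehicle and 47330, 144600 and 196300 CPM with BIO 300. The study's methods name a globin-depleting library kit and the labels name polyA selection, and the part of either in these levels was not tested. Hbb-bs, an adult β-globin, made up most of this at 10910 to 197100 CPM with vehicle and 45560 to 188800 CPM with BIO 300 (0.52, SE 0.69). Its reads are shared in part with the near-identical Hbb-bt, so each value is uncertain. Alas2, the first enzyme of heme synthesis in red cell precursors, had medians of 31270 and 44440 CPM (0.18, SE 0.62). All 18 red cell membrane and heme genes were above 0, with a median of 0.15, but this median was -0.10 in the 9 mice and -0.05 without animal 51. Early erythroid genes had a median of 0.31 over 12 genes, 0.15 in the 9 mice, 0.13 without animal 51 or 60 and 0.56 without animal 50, and none of the 3 red cell lists held a gene with an unadjusted p under 0.05.

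**Figure D3:**
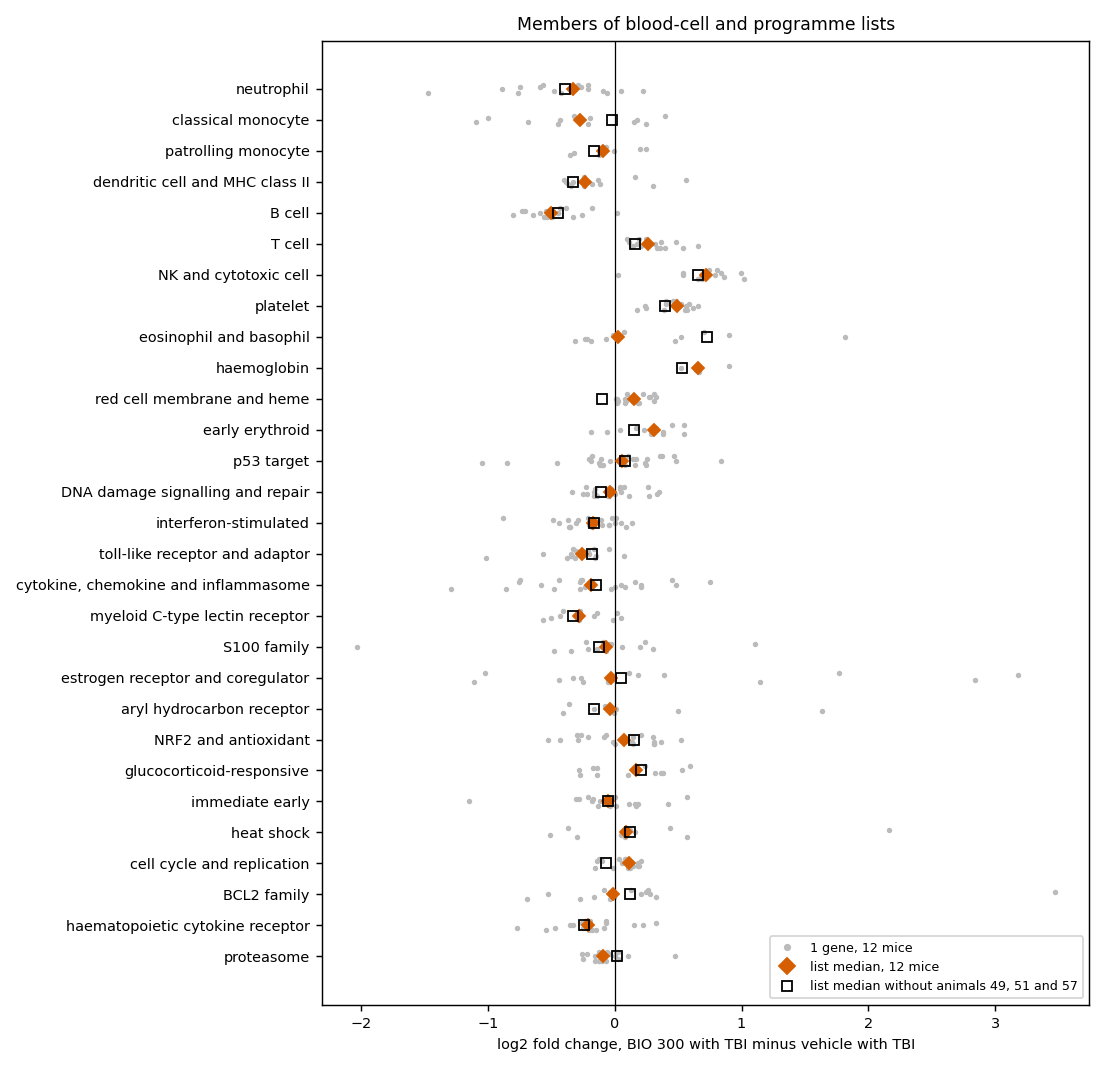
Log2 fold change, BIO 300 with TBI minus vehicle with TBI, of each member (grey dots) of the blood-cell and programme lists, with the list median in all 12 mice (orange diamonds) and without animals 49, 51 and 57 (open squares). The NK and cytotoxic median is 0.72 and the B-cell median -0.50, while the p53 target and DNA damage medians are 0.06 and -0.04.

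Genes of the radiation response itself had list medians close to 0. The 26 p53 target genes had a median of 0.06, with 1 member higher at an unadjusted p under 0.05, where 1.90% of all genes tested were. In the 9 mice the median was 0.08 and 3 were higher, where 2.09% of all genes were. Without animal 57, 3 were higher and 4 lower, where 1.37% and 10.1% of all genes were. Mdm2, the p53 ubiquitin ligase, was between 61.3 and 79.7 CPM with vehicle and between 66.0 and 78.5 CPM with BIO 300 (0.04, SE 0.12). Cdkn1a, which encodes the cell cycle inhibitor p21, had a value of -0.11 (SE 0.38), and the pro-apoptotic Bax and Bbc3 had 0.24 (SE 0.15) and 0.49 (SE 0.27). The member that stood out was Ddit4 (chromosome 10, 59949669 to 59951834, minus strand), an inhibitor of mTORC1 that glucocorticoids, hypoxia and DNA damage induce. It was at 8.29, 14.8 and 19.6 CPM with vehicle and 20.7, 27.6 and 29.0 CPM with BIO 300. Every treated mouse thus lay above every control, as for 0.0321% of all genes tested, and the gene did not pass the test. The log2 fold change was 0.84 (SE 0.24), and 0.64 (SE 0.22) in the 9 mice.

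The 24 DNA damage signalling and repair genes had a median of -0.04, the 15 genes of the BCL2 family -0.01 and the 20 cell cycle and replication genes 0.11, with 0 members at an unadjusted p under 0.05. Of 24 interferon-stimulated genes, 19 lay below 0 with a median of -0.17. Rsad2, an antiviral enzyme induced by interferon, spread from 237 to 2968 CPM with vehicle and from 622 to 2344 CPM with BIO 300 (0.05, SE 0.51). NRF2 and antioxidant genes had a median of 0.07 over 20 genes, and heat shock genes one of 0.09 over 12. In the heat shock list, Hspb1, the small heat shock protein HSP27 of muscle and epithelium, had an unadjusted p under 0.05, with 15.6 CPM in animal 57 and 1.34 CPM or less elsewhere. Its log2 fold change of 2.16 (SE 0.96) became -0.16 without that mouse. Psmb5, a catalytic subunit of the proteasome, was at 9.5, 10.9 and 14.2 CPM with vehicle and 11.5, 14.3 and 21.0 CPM with BIO 300 (0.47, SE 0.19), within a list of 23 proteasome genes whose median was -0.09. Egr1, an immediate early transcription factor, was at 14.2 CPM in animal 49 and 5.52 CPM or less in the other mice. Its log2 fold change was -1.15 (SE 0.50), and -0.29 (SE 0.26) in the 9 mice.

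Genistein binds estrogen receptors, and for the 16 estrogen receptor and coregulator genes the median fold change on the log2 scale was -0.03. Esr2, which encodes estrogen receptor β, was close to the limit of detection in every mouse, at 0.0383, 0.118 and 0.335 CPM with vehicle and 0, 0.0708 and 0.267 CPM with BIO 300 (-0.44, SE 0.79). Greb1 (chromosome 12, 16670615 to 16800886, minus strand), an estrogen-induced coactivator of estrogen receptor α, was higher with BIO 300 at an unadjusted p under 0.05. Its counts were 1, 1, 5, 0, 0 and 0 in animals 49 to 54 and 7, 4, 11, 13, 3 and 13 in animals 55 to 60. The log2 fold change of 2.84 (SE 0.82) rests on these few reads, and on the CPM scale animal 51 at 0.140 CPM lay above animal 59 at 0.100 CPM. The 8 aryl hydrocarbon receptor genes, another set that flavonoids can act on, had a median of -0.04.

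Glucocorticoid-responsive genes had a median of 0.17 over 12 genes, of which 7 lay above 0 and 5 below. At an unadjusted p under 0.05, 2 were higher, where 1.90% of all genes tested were. With scaling to total counts the median was 0.05 and 0 were higher at that threshold. Without animal 57 the median was 0.12 and 1 was higher. Zbtb16, a transcription factor induced by glucocorticoids in many tissues, was at 17.7, 20.7 and 23.9 CPM with vehicle and 23.2, 25.2 and 35.9 CPM with BIO 300 (0.36, SE 0.16). Its highest mouse was animal 57. Map3k6, a stress-activated kinase, was at 1.34, 2.21 and 2.72 CPM against 2.71, 2.98 and 3.94 CPM (0.59, SE 0.22). The groups of Map3k6 overlapped by the highest vehicle-treated mouse and the lowest treated mouse alone. In the 9 mice, where 2.09% of all genes tested were higher at that threshold, 3 members were, Map3k6, Fkbp5 at 0.71 and the clock gene Per1 at 0.64.

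The gene with the smallest adjusted p in both DESeq2 and voom was Npas2 (chromosome 1, 39193731 to 39363236, plus strand), which was singled out after its values were seen. Its protein pairs with BMAL1 in the circadian clock as CLOCK does. With vehicle it was at 0.418, 1.09 and 2.48 CPM, from 12 to 37 counts, and with BIO 300 at 1.81, 4.87 and 7.98 CPM, from 93 to 173 counts. The log2 fold change was 2.17 (SE 0.48), and 2.12 (SE 0.39) in the 9 mice, and it stayed between 1.97 and 2.55 in the 22 alternatives. Animal 57 at 1.81 CPM was the one treated mouse below a control, animal 50 at 2.48 CPM. A list of 19 clock genes, chosen after the values of Npas2 were seen, had a median of -0.50, with Npas2 the 1 member at an unadjusted p under 0.05. Arntl, which encodes BMAL1, had a log2 fold change of 0.30 (SE 0.25), Clock -0.38 (SE 0.35) and Dbp, an output gene of the clock, -0.54 (SE 1.05). The list summed to 345, 695 and 547 CPM in animals 49, 51 and 57 and to between 91.7 and 133 CPM in the others. Without animals 49, 51 and 57 the clock median was 0.16, and without animal 59 as well it was -0.05. Without animal 57 alone it was -1.24, and without animal 51 alone 0.36.

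Other genes were singled out in the same way. Cited4, a transcriptional coactivator, was at 0.698, 1.47 and 1.61 CPM with vehicle and at 2.27, 2.67 and 3.81 CPM with BIO 300 (1.06, SE 0.26). Its groups did not overlap, as for 0.0321% of all genes tested in that direction. Dusp2, a phosphatase of activated leukocytes that switches off MAP kinases, had medians of 2.69 and 6.26 CPM and was highest in animal 60 at 13.2 CPM (1.32, SE 0.45). Adcy5, an adenylyl cyclase, was among the higher genes at or above 10 CPM chosen by p, with 5.11, 7.63 and 13.7 CPM against 9.38, 17.1 and 36.7 CPM (1.17, SE 0.36). Its highest mouse was animal 57, and in the 9 mice its log2 fold change was 0.69 (SE 0.29).

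**Figure D4:**
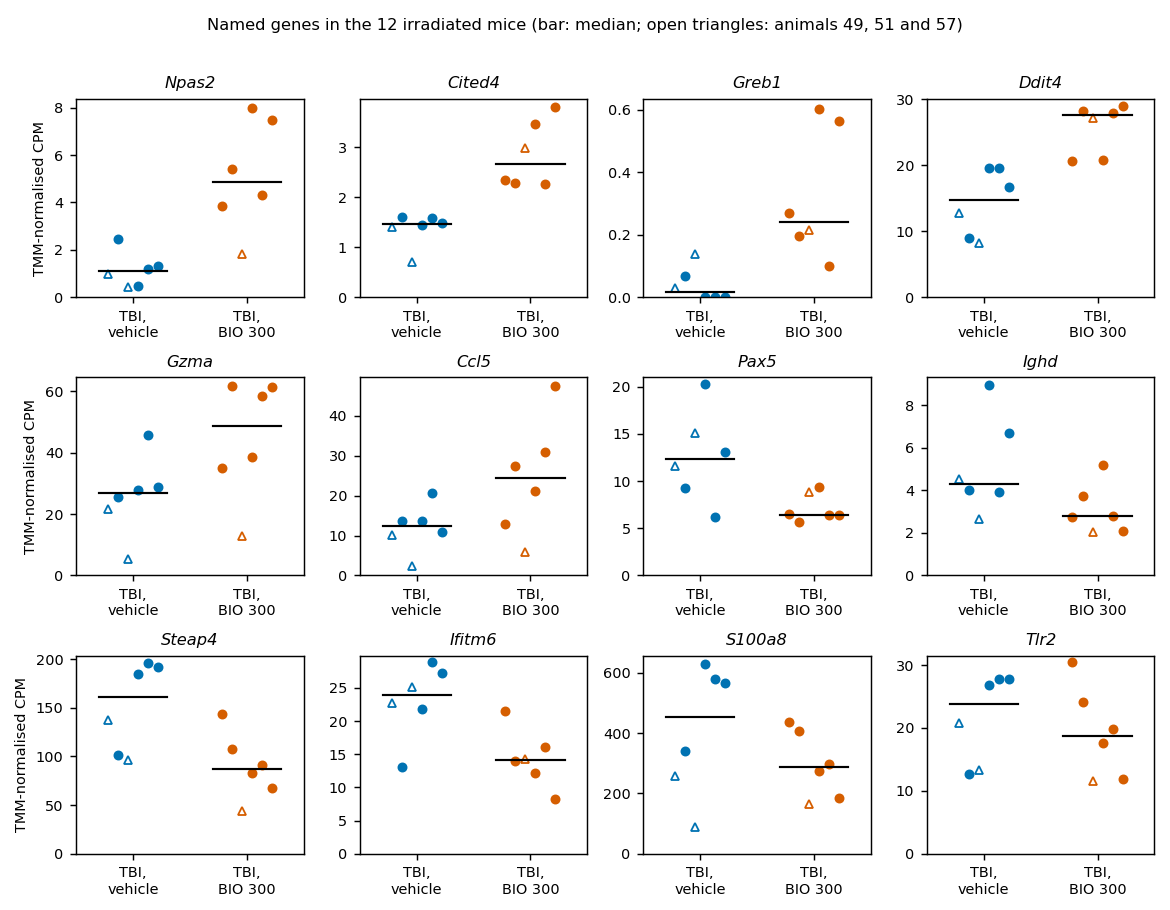
TMM-normalised CPM of 12 named genes in each of the 12 irradiated mice, vehicle in blue and BIO 300 in orange, 6 mice each, with bars at the medians and open triangles for animals 49, 51 and 57. For Ddit4 and Cited4 the treated mice all lie above the controls, and for Npas2 animals 50 and 57 are the ones that cross.

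The growth factor receptors, complement and fibrinogen genes named by the study followed the libraries with liver transcripts. Egfr was at 66.0, 308 and 92.2 CPM in animals 49, 51 and 57 and at 1.37 CPM or less in the other 9 mice, with a log2 fold change of -1.98 (SE 2.09) in all 12 mice and 1.02 (SE 0.72) in the 9. Fgfr1 reached 29.4, 156 and 95.9 CPM in these 3 animals and 6.07 CPM or less elsewhere (-0.80, SE 1.42). Fgfr2, Fgfr3 and Fgfr4 were at 4.72 CPM or more in the same 3 animals and at 0.401 CPM or less in the others. C3, the central complement component, was at 1406, 6345 and 1079 CPM in animals 49, 51 and 57 and between 29.4 and 89.8 CPM elsewhere. Its log2 fold change of -2.58 (SE 1.49) was -0.04 (SE 0.30) in the 9 mice. Fga, a fibrinogen chain, was at 517, 2118 and 365 CPM in these animals, at 3.24 CPM in animal 59 and at 0.115 CPM or less in the other 8.

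The same treatment in unirradiated mice gave other values. For this the 12 irradiated mice were fitted together with 6 unirradiated vehicle-treated mice and 6 unirradiated mice given BIO 300 at 200 mg/kg, all bled on Day 1, at 48 h after the last dose. The interaction, the BIO 300 fold change with TBI minus that without, passed the DEG thresholds for 5248 genes above 0 (19.5% of 26875) and 2697 below 0 (10.0%), so 66.1% of its DEGs lay above 0. Scaled to total counts, 96.0% of 12208 did, and the median over all genes moved from 0.60 to 1.68. Without TBI the median log2 fold change over all genes was -0.71, so the directions below hold on the TMM scale.

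Without TBI the B-cell list had a median of -2.04, and 16 of 18 members had an interaction DEG above 0, where 19.5% of all genes tested did. T-cell genes had -2.14 without TBI, and 17 of 18 members had an interaction DEG above 0, beside the same 19.5% of all genes. For Cd3e the interaction was 2.54 and for Pax5 1.30. The levels from which these fold changes start also differ. On the scale of 24 mice, the mean log2(CPM + 1) of the B-cell list had a median of 6.43 in unirradiated and 3.16 in irradiated vehicle-treated mice. For the T-cell list these medians were 5.65 and 3.50.

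Platelet genes started from 7.2 without and 9.90 with TBI on that scale, and went the other way, with a median of 2.98 without TBI. All 16 members had an interaction DEG below 0, where 10.0% of all genes tested did, among them Ppbp at -2.44 and Thbs1 at -2.51. An interaction DEG below 0 was also found for 10 of 12 early erythroid members and for 10 of 18 red cell membrane and heme members. Toll-like receptor and adaptor genes had a median of -1.04 without TBI. Of 18 members 5 had an interaction DEG above 0, where 19.5% of all genes tested did. The median interaction of the list was 0.70, beside 0.60 over all genes. Tlr6 and Tlr8 had interactions of 1.62 and 1.14. For the NK and cytotoxic list the median was -0.13 without TBI, and 0 of 14 members had an interaction DEG in either direction.

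Some single genes had a value of the same sign in both settings. Npas2 had a log2 fold change of 4.04 without TBI and an interaction of -1.84 (adjusted p = 0.014 with edgeR), and Cited4 had 2.18 and -1.11 (adjusted p = 0.023). Steap4 had -0.68 without TBI and Ifitm6 -0.69, with interactions of -0.07 and 0.01 that did not pass the test. Ddit4 was different, with -0.21 without TBI and an interaction of 1.06 (adjusted p = 0.017). Ipmk had 0.78 without TBI and an interaction of -1.09 (adjusted p = 6.9e-05). Greb1 had 0.19 without TBI and an interaction of 2.64 that did not pass the test.

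**Figure D5:**
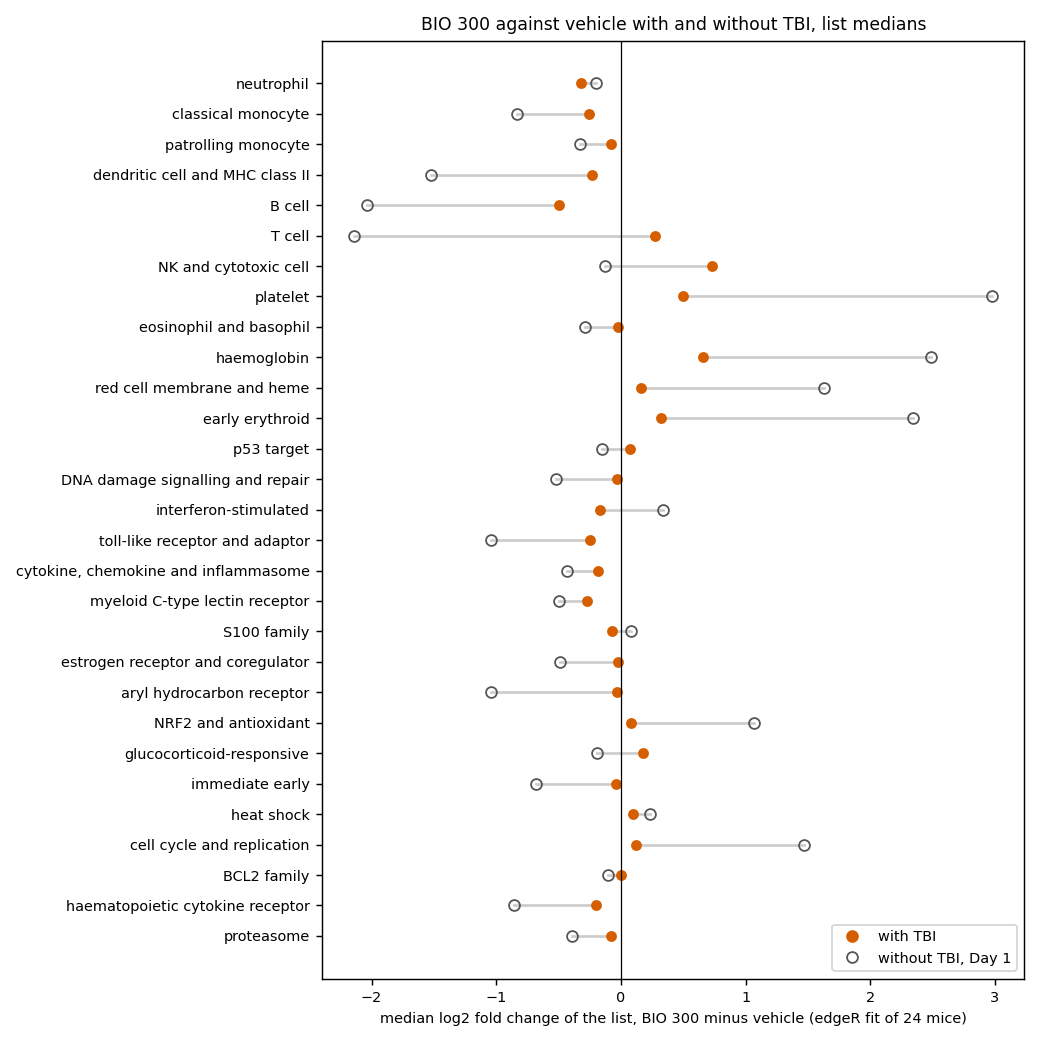
Median log2 fold change of each blood-cell and programme list, BIO 300 minus vehicle, in irradiated mice (filled circles) and unirradiated mice of Day 1 (open circles), from the edgeR fit of 24 mice. The T-cell list lies at 0.27 with TBI and -2.14 without, and the platelet list at 0.50 and 2.98.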

How the data were processed

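The authors sequenced whole blood RNA of 60 mice, 6 per group. Per the study's methods the kit was for stranded total RNA and removed ribosomal and globin transcripts, while the sample labels say polyA selection. The submitters' processing notes name Trimmomatic 0.36, STAR 2.5.2b, Subread 1.5.2 and DESeq2, with GRCm38. The authors deposited raw counts of uniquely assigned reads for 49315 Ensembl genes, without normalization. Tables of their own DESeq2 comparisons hold fold changes and p-values and were not used here. Gene symbols were found for 48970 genes, with positions from GENCODE vM21 on GRCm38.

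The 12 irradiated mice were fitted with edgeR 4.0.16 in R 4.3.3 (TMM, glmQLFit and glmQLFTest) on the 24916 genes with at least 10 counts summed over these mice. DEGs, as in the study's methods, needed an adjusted p (Benjamini-Hochberg) below 0.05 together with a log2 fold change above 1 or below -1. The SE is the log2 fold change divided by the square root of F. Interactions came from a fit of 24 mice. DESeq2 1.42.0 and limma voom 3.58.1 were alternatives, beside other scalings, filters and left-out mice. The edgeR, DESeq2 and voom code was run on simulated counts, with known large changes placed in well-expressed genes of low dispersion. No libraries with transcripts of other tissues were simulated, so this checks the code and not how such libraries affect the fits. Libraries were compared in pairs within groups, and the smallest chi-square per degree of freedom was 12.05, so none was a copy. TMM factors ran from 0.662 to 1.38. The p-values set a difference between groups against the spread between mice. They take the mice as independent, with no term for cage or box. A floor of 3 counts covers counting error only. List levels are means of log2(CPM + 1), with a pseudocount of 1.

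Groups came from the sample labels. The genes named by rule are those the study names for mice, the 3 most abundant members of each blood list and list of other tissues, list members with an unadjusted p under 0.05, and the 10 higher and 10 lower genes with the smallest p, outside the lists of other tissues, with 10 CPM or more as the mean of either group. From these, and from the genes any alternative with all 12 mice called, values are given for the ones that bear on the comparison. Other list members were picked outside these rules as examples, among them Mdm2, Cdkn1a, Rsad2, Prf1, Tbx21, Ncr1, Arntl and Clock. The members, the 38 lists and the tests were chosen with earlier results of these data known, and the heart muscle and clock lists, Npas2, Cited4 and Dusp2 after the values were seen. Some results of the clock list are not reported here.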

Additional observations from a re-analysis of the deposited data

Results flagged for a closer look

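A mouse was set apart where its gap to the nearest of its group, divided by the range of the group, exceeded Dixon's 95% limit for 6 samples. Over 158 gene groups and 80 list groups, there were 42 and 21 cases of a mouse standing apart, with the same mice recurring. The limit passes about 1 in 20 where values are normal and independent. These genes and lists share mice and were chosen with earlier results known, some after their values were seen. The counts are therefore not set against that rate. Animal 57 accounted for 39 of these, animal 51 for 20 and other animals for 4. No explanation was tested.

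In animal 57, the mean log2(CPM + 1) was apart from the other treated mice for lists of other tissues. It was 9.10 for hepatocyte, 3.99 for vessel wall smooth muscle, 3.59 for fibroblast and matrix, 3.70 for endothelial, 1.24 for exocrine pancreas, 4.57 for skeletal muscle, 2.01 for mesothelium and 7.91 for heart muscle genes, the exocrine pancreas level being the lowest of its group and the others the highest. Lists of blood cells and programmes were also apart, at 3.11 for dendritic cell and MHC class II, 2.5 for T cell, 4.76 for p53 target, 4.24 for growth factor receptor, 4.09 for estrogen receptor, 2.49 for aryl hydrocarbon receptor, 4.72 for proteasome and 4.35 for clock genes. The T-cell level was the lowest of its group and the other blood and programme levels the highest.

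Single genes in animal 57 were at 117 CPM for Ighm, 155 for Cd74, 56.4 for H2-Aa, 5.19 for Tlr3, 4.98 for Tgfa, 3364 for Lyz2, 402 for Cd36, 16.2 for Spn, 35.9 for Zbtb16 and 15.6 for Hspb1. Spn was low there and the others high. Genes of other tissues were at 5741 CPM for Alb, 1079 for C3, 365 for Fga, 92.2 for Egfr, 95.9 for Fgfr1, 4.72 for Fgfr2, 5.78 for Fgfr3, 5.88 for Fgfr4, 1451 for Mb, 892 for Myl2, 649 for Lpl, 980 for Pln and 34.5 for Col3a1.

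In animal 51, a vehicle-treated mouse, the S100 list at 3.52 and the exocrine pancreas list at 1.03 were low, and mesothelium at 2.65 and heart muscle at 1.16 were high. Its levels were 180 CPM for Lcn2, 2521 for Hp, 598 for Lrg1, 100.3 for Orm2, 9.65 for Tlr3 and 0.698 for Cited4, the last of them low. It was also apart for Alb at 15900 CPM, C3 at 6345, Fga at 2118, Egfr at 308, Fgfr1 at 156, Fgfr2 at 35.4, Fgfr3 at 23.1, Fgfr4 at 21.3, Mb at 1.45 and Col3a1 at 70.1. In the other mice, animal 50 was low for the toll-like receptor list at 3.69, animal 60 high for Il2rb at 153 CPM, animal 56 high for Hba-a1 at 6491 CPM and animal 49 high for Egr1 at 14.2 CPM.

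The effect of BIO 300 with TBI minus that without passed the interaction test for 28 of 79 genes taken from the text (edgeR, 24 mice). Over all 26875 genes tested, 19.5% passed above 0 and 10.0% below 0, so many passes are found for any set of genes. Lymphocyte genes had positive differences, with log2 values of 1.30 for Pax5, 1.42 for Ighd, 1.21 for Ms4a1, 1.75 for Cd22, 1.16 for Ighm, 2.54 for Cd3e and 2.34 for Tcf7. So did Tlr6 at 1.62, Tlr8 at 1.14, Mpeg1 at 1.14, Spn at 1.73, Ddit4 at 1.06 and Dusp2 at 2.05. Platelet genes had negative ones, with -2.44 for Ppbp, -2.39 for Nrgn and -2.51 for Thbs1. F13a1 at -2.07 and Cd36 at -1.49 were negative too, although Mpeg1 and Spn, of the same 2 monocyte lists, were positive. Red cell genes were at -2.27 for Hba-a1, -1.62 for Fech, -2.0 for Alas2 and -2.26 for Tfrc. The remaining values were -1.09 for Ipmk, -1.84 for Npas2, -1.11 for Cited4, -1.69 for Adcy5, 6.61 for Myl2 and 7.75 for Pln, the last 2 being muscle genes high in animal 57.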

How the results depend on the processing

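In the comparison of the irradiated groups, DESeq2, voom, RLE or total-count scaling, other low-count filters and leaving out each mouse in turn or the liver and fat libraries together gave 0 DEGs (leave-one-out range 0 to 0). The fit with the hepatocyte level as a covariate called 112, all higher with BIO 300, of which 111 had over 50% of their summed CPM in animal 57, and without animal 57 it called 1, Serpina4-ps1 (log2 fold change 9.12, adjusted p = 0.0278 with edgeR). This last fit was chosen after seeing the data. The covariate fit called Npas2 (1.97, adjusted p = 0.0223 with edgeR) and Mb (13.32, adjusted p = 5.3e-07). At an unadjusted p under 0.05 there were 688 genes, against 307 with DESeq2, 2355 with voom, 224 with filterByExpr and 1502 with the covariate. Leaving out 1 mouse gave 450 (without animal 49) to 2741 (without animal 57, 328 higher and 2413 lower). Past an absolute log2 fold change of 1 there were 3259 genes, against 1703 with voom, 487 with filterByExpr, 8705 with no filter, 1665 without animals 49, 51 and 57, 1413 also without animal 59, and 2806 to 4912 (without animal 57) with 1 mouse left out. The filters test fewer or more low genes, and the other causes were not tested. Interaction DEGs numbered 7945, against 12208 with total counts and 6906 to 9373 with 1 mouse left out. Of 79 genes 53, and of 40 lists 16, kept their sign in every alternative. No paired analysis was possible because the groups share no replicate numbers. Genes under about 0.201 CPM lie at the counting floor.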

Other observations

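Eosinophil and basophil genes were not described above. Of 13 genes 12 were tested, 6 with a log2 fold change above 0 and 6 below. The values ran from -0.31 for Ccr3 to 1.82 for Mcpt8. The median was 0.03, and 0.73 in the 9 mice without animals 49, 51 and 57. In those 9 mice 1 member was higher at an unadjusted p under 0.05, where 2.09% of all genes tested were. Hdc, the histidine decarboxylase of basophils and mast cells, was at 31.1, 105 and 152 CPM with vehicle and 37.5, 96.1 and 130 CPM with BIO 300 (-0.19, SE 0.37). Ccr3, the eotaxin receptor of eosinophils, had medians of 28.2 and 31.5 CPM (-0.31, SE 0.46). Neither had an unadjusted p under 0.05. Exocrine pancreas genes were tested for 4 of 10 members, mesothelium genes for 6 of 6 (median -0.74) and skeletal muscle genes for 7 of 8 (median 3.60, and -0.22 without animal 57).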
